A study of Mus musculus with 86 samples.

Results

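The genes described here are the 10 genes H2-K1, H2-D1, B2m, H2-T23, Tap1, Psmb8, H2-Aa, H2-Ab1, H2-Eb1 and Cd74 of major histocompatibility complex (MHC) class I and class II antigen presentation. They are fixed by name, with no threshold on a measured value, although earlier results of these data were known when the list was drawn up, and are 10 of the 35275 genes in the deposited table, all found by their Ensembl identifiers. RNA of the prefrontal cortex, hippocampus and hypothalamus was sequenced in free-living house mice (Mus musculus domesticus) of a barn population near Zurich, all untreated, and the groups are set by sex and by social network size, the number of different partners an animal met in nest boxes per day. Females with large (7 animals) and small (7 animals) network sizes and males with large (7 animals) and small (8 animals) network sizes gave 86 libraries, 1 per animal and region, and hypothalamus RNA was not obtained from 1 male with a small network. The animals came from the tails of the population's network size distribution in winter, and the study's methods list a lower mean estimated age for males with small networks than for males with large networks, with no significant difference in age by sex or network size. The part of age was not tested. The mice were wild, and their reads were counted on the reference genome of the inbred strain C57BL/6J. Animals are named by the numbers the study gave them.

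MHC class I molecules sit on the surface of nearly all nucleated cells and show peptides from inside the cell to CD8 T cells. A class I molecule is a polymorphic heavy chain, in the mouse H2-K1 or H2-D1, bound to the invariant light chain B2m, and its peptides are cut by the immunoproteasome, of which Psmb8 is a catalytic subunit, and pumped into the endoplasmic reticulum by the transporter that Tap1 forms with Tap2. H2-T23 encodes the non-classical class I heavy chain Qa-1. Class II molecules, made of the alpha chain H2-Aa with the beta chain H2-Ab1 or of a further alpha chain with the beta chain H2-Eb1, show peptides taken up from outside the cell to CD4 T cells, and Cd74, the invariant chain, escorts them. In the brain class II is mostly carried by a minority of microglia, border macrophages, dendritic cells and B cells, while interferon raises genes of both classes.

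In GRCm38, 8 of the 10 genes lie in the MHC of chromosome 17, between position 33996017, where H2-K1 starts, and position 36032855, where H2-T23 ends, with H2-Ab1, Tap1, Psmb8, H2-Aa, H2-Eb1 and H2-D1 between them. B2m lies on chromosome 2 (122147686 to 122153083), and Cd74 is not linked to the MHC either. All are annotated as protein coding. RefSeq gives a promoter window for 8 of the 10 genes, read here as the 250 bases before each start site on build GRCm38.p6. The 11-base kappa B element of class I promoters is shown in capitals in the lines for both genes. It stood 111 bases before 1 RefSeq start of H2-K1, 125 bases before another, and 171 bases before the H2-D1 start. Of all 32851 RefSeq promoters, 10 held it (0.0304%, both strands searched). The 29 bases around it show how alike both heavy chain promoters are. That of H2-K1 lies at chr17:34000439-34000467 on the minus strand and that of H2-D1 at chr17:35262914-35262942 on the plus strand, where 1 GENCODE transcript of H2-D1 already has its 5′ untranslated region.
H2-K1: cccagggctGGGGATTCCCCatctccaca
H2-D1: cccagggctGGGGATTCCCCatctcctca
The longest run of bases that both windows shared was 47 bases, while no other of the 27 pairs of members' windows shared more than 12 bases. B2m carried the core of an interferon response element, GAAA, any 2 bases and GAAA again, 139 bases before its start, as did H2-T23 on the other strand at 124 bases, against 2.98% of all promoters. The H2-T23 window (chr17:36032702-36032951) reaches into the annotated gene, which ends at 36032855, and this match lies in that overlap. B2m is shown from chr2:122147437-122147685 on the plus strand, with that core in capitals.
B2m: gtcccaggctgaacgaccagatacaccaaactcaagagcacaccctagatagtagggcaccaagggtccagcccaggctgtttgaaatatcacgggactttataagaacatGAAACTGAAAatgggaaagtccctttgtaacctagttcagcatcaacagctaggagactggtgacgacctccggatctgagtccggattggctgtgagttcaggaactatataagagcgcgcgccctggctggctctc
The class II chains H2-Aa and H2-Eb1, whose levels were the most closely correlated pair of the 10 genes, both carried the inverted CCAAT letters CTGATTGG, at 51 and 62 bases before the start, as 3.83% of all promoters did on either strand. H2-D1, H2-T23 and Tap1 held the same letters on the other strand. The X box core AGCAAC stood 92 bases before the H2-Eb1 start and in 12.2% of all promoters. The windows of H2-Aa (chr17:34287824-34288073, minus strand) and H2-Eb1 (chr17:34305617-34305866, plus strand) are shown with these letters in capitals.
H2-Aa: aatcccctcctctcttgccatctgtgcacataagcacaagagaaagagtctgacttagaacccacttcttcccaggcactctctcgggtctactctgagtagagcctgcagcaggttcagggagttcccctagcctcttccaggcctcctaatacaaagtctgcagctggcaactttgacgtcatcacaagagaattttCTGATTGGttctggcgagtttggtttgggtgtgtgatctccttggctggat
H2-Eb1: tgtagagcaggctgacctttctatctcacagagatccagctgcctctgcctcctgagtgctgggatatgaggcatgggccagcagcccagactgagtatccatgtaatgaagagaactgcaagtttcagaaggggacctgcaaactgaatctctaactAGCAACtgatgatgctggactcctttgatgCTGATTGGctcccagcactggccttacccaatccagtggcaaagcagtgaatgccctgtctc
Such matches describe letters in a window and not bound sites.

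Library totals lay between 33711824 and 81865801 counts, with a median of 44778419, and 0 pairs of libraries were identical. The summed level of 6 hypothalamic neuropeptide genes was 91.9 to 1434 CPM (read counts scaled to a common library total) in the hypothalamus, at most 6.8 CPM in the prefrontal cortex and at most 81.7 CPM in the hippocampus (animal 7, against a median of 7.16 CPM), and the order of Xist and Ddx3y went against the labelled sex in 0 libraries. Choroid plexus markers summed to 278 to 1506 CPM in the hippocampus, to 4.71 to 447 CPM (median 8.24) in the prefrontal cortex, where animal 20 was highest, and to 34.3 to 324 CPM (median 49.6) in the hypothalamus, where animal 28 was highest. CPM values were scaled by TMM over all 86 libraries. As these are tissue punches, fewer cells of a type and less RNA per cell cannot be told apart.

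Per kilobase of exon, B2m was the most abundant of the 10 genes in every region, with median levels of 86.4 CPM per kilobase (prefrontal cortex), 80.0 (hypothalamus) and 92.1 (hippocampus). The heavy chains followed, with H2-D1 at medians of 17.97 to 20.3 CPM per kilobase and H2-K1 at 13.05 to 14.5. Cd74 and H2-T23 came next at medians of 7.59 and 7.69 CPM per kilobase in the prefrontal cortex, while hypothalamic Cd74 (14.03) stood beside H2-K1 (13.5). Tap1, Psmb8 and H2-Eb1 stood at 1.62, 1.19 and 1.38 in the prefrontal cortex. H2-Aa and H2-Ab1 were lowest there at 0.361 and 0.318. In each region the lowest B2m value lay above the highest H2-D1 value, while the ranges of all later neighbours in this order overlapped. B2m did overlap with Cd74 in 2 regions. The highest Cd74 value was 106 CPM per kilobase in the prefrontal cortex and 71.8 in the hippocampus, against lowest B2m values of 47.5 and 53.6. The H2 heavy chains have near-identical relatives in the genome, so their counts are uncertain to the extent that reads were shared or dropped in counting.

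H2-K1, a classical class I heavy chain, was close to 0 in 3 of the 29 animals and at full level in the others. In the prefrontal cortex it measured 0.170 CPM (7 counts) in animal 4, 0.512 CPM (24 counts) in animal 30 and 0.803 CPM (43 counts) in animal 2, against 16.03 to 79.3 CPM (610 to 4202 counts) in the other 26. In the hypothalamus the same 3 animals measured 0.641, 0.549 and 1.27 CPM against 16.4 to 87.3 CPM in the other 25. In the hippocampus they measured 0.355, 0.577 and 0.712 CPM against 16.1 to 89.5 CPM. The lowest of the other animals was thus 19.98, 12.9 and 22.7 times above the highest of these 3, in the same order of regions. The 3 animals were a female with a small network, a male with a large network and a female with a large network, in that order. Among the other animals, H2-K1 still ranged 4.94 to 5.55 times from lowest to highest.

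H2-D1, the other classical heavy chain of the table, was low in 5 animals, the same ones in every region. It measured 5.83 CPM in the prefrontal cortex of animal 5, 8.12 in animal 9, 8.41 in animal 20, 11.03 in animal 2 and 14.8 in animal 25, against 28.4 to 93.4 CPM in the other 24. In the hypothalamus these 5 lay between 6.27 and 11.3 CPM (262 to 569 counts) and the other 23 between 31.1 and 108 CPM. In the hippocampus they lay between 6.8 and 9.81 CPM and the others between 23.8 and 89.7 CPM. Here no animal was near 0, and the lowest of the others stood 1.92, 2.75 and 2.43 times above the highest of the 5. Only animal 2 was low in both heavy chains. The low animals fell in both network groups of females (1 of 7 each for H2-K1, 2 of 7 each for H2-D1) and among males with large networks (1 of 7 for each gene), with 0 of the 8 males with small networks. Because animals were set apart here by the measured level, these counts are given without a test.

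**Figure D1:**
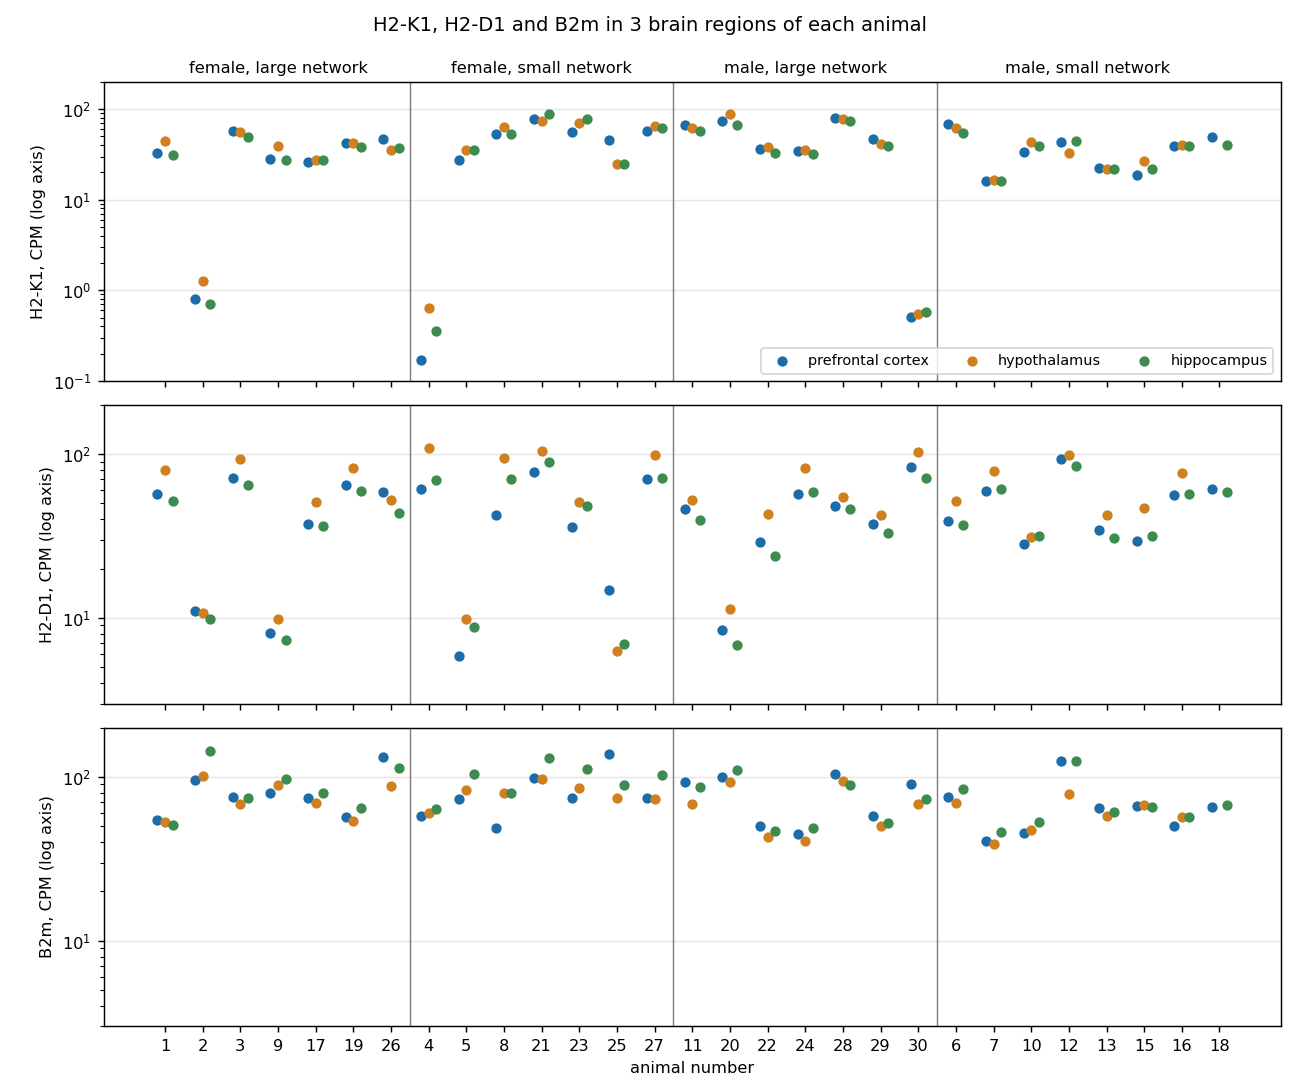
H2-K1, H2-D1 and B2m in each animal (x axis, by sex and network group), as CPM on a log axis (y axis), with 1 point for each of the 3 regions. Animals 2, 4 and 30 sit at 0.170 to 1.27 CPM for H2-K1 and animals 2, 5, 9, 20 and 25 at 5.83 to 14.8 CPM for H2-D1 in all 3 regions, apart from all other animals, while B2m shows no such gap.

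Gaps of this kind were sought over all genes by a rule chosen after these values were seen: the same animals, at least 2 on each side, below the widest gap in all 3 regions, with a gap of at least 0.5 on the log2 scale. Of 17824 genes, 97 (0.544%) met it, with H2-K1 ranked 19 and H2-D1 ranked 68 by the size of the gap. Of the 97, 43 were protein coding and 40 were pseudogenes. In the window from H2-K1 to H2-T23, 2 of 106 genes met it, namely the heavy chains themselves, so the neighbours Tap1, Psmb8, H2-Aa, H2-Ab1 and H2-Eb1 did not. Outside the window on chromosome 17, Cyp4f16, a cytochrome P450 gene at 32536558 to 32551798, was low in animals 2, 4, 17 and 30, a set that holds the 3 animals with low H2-K1. How well the reads of each animal matched the reference at these genes was not tested.

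Over all 86 libraries, with values centred on the 12 groups of region, sex and network size, the genes most like H2-K1 were the pseudogenes Rab11b-ps2 (r = 0.93) and Gm6436 (r = 0.93) on chromosomes 19 and 13 and Cyp4f16 (r = 0.88). Those most like H2-D1 were H2-Q1 (r = 0.77), H2-Bl (r = 0.71) and Gm8810 (r = 0.67), all 3 on chromosome 17. These correlations are descriptions, since the 3 libraries of an animal are not independent and a few low animals set them.

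The light chain and the peptide supply genes spread less and showed no such separate animals. B2m ranged from 40.8 to 138 CPM in the prefrontal cortex (median 74.3), from 39.0 to 102 in hypothalamus (median 68.8) and from 46.1 to 143 in hippocampus (median 79.2), with animal 7, a male with a small network, lowest in all 3. H2-T23 ranged from 12.5 to 40.1 CPM in the prefrontal cortex and from 10.4 to 25.6 and 32.1 in the hypothalamus and hippocampus, with animal 1 lowest in all 3. Tap1 ranged from 4.96 to 20.3 CPM and Psmb8 from 1.78 to 8.38 CPM in the prefrontal cortex. From lowest to highest animal, these 4 genes thus spanned 2.47-fold (H2-T23 in the hypothalamus) to 6.92-fold (Psmb8 in the hippocampus).

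Class II transcripts were scarce in most libraries and abundant in a few. H2-Eb1 in the prefrontal cortex had a median of 2.68 CPM and a highest value of 49.4 CPM, in animal 25, a female with a small network. The next were 32.5 CPM in animal 12, a male with a small network, and 23.4 CPM in animal 26, a female with a large network. By group, the lowest, median and highest H2-Eb1 values there were 1.55, 2.82 and 23.4 CPM in females with large and 1.53, 2.74 and 49.4 CPM in females with small networks. In males they were 1.17, 4.57 and 13.2 CPM with large and 0.736, 1.89 and 32.5 CPM with small networks, so the groups overlapped over most of their range. Cd74 had the same 3 animals on top of the prefrontal cortex, at 178, 146 and 105 CPM against a median of 12.7 CPM. The span from the lowest to the highest animal was 71.4-fold for H2-Aa, 28.1-fold for H2-Ab1, 67.2-fold for H2-Eb1 and 62.1-fold for Cd74 in prefrontal cortex, 6.93-fold to 14.95-fold in hypothalamus and 16.1-fold to 21.5-fold in hippocampus.

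The high animals were not the same in every region. The summed level of the 4 class II genes in animal 25 was 258.9 CPM in the prefrontal cortex, 14.3 times the median library of the region (18.1 CPM), but 42.8 CPM in the hypothalamus and 65.9 CPM in the hippocampus. Animal 12 was high in the prefrontal cortex (202.8 CPM) and the hippocampus (174.7 CPM) and less so in the hypothalamus (65.5 CPM). Animal 21, a female with a small network, was highest in the hypothalamus (85.4 CPM against a median of 35.6) and second in the hippocampus (161.5 CPM against a median of 28.4). Of the 7 highest libraries of a region, 3 (prefrontal cortex), 3 (hypothalamus) and 4 (hippocampus) were of animals with small networks.

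Markers of microglia, border macrophages, B cells and dendritic cells, which can carry class II, and of T cells were measured beside these sums. The 8 microglia markers in the prefrontal cortex library of animal 25 summed to 1.11 times the region's median, the 7 T cell markers to exactly that median, the 4 B cell markers to 0.634 times, the 6 border macrophage markers to 0.864 times and the 6 dendritic cell markers to 1.02 times, while class II stood at 14.3 times. In that of animal 12 they summed to 1.101, 1.61, 1.48, 1.0999 and 1.07 times the median in the same order, T cell markers being the highest of 29 libraries. In that of animal 26, where class II stood at 8.2 times, they summed to 0.995, 0.869, 1.16, 0.994 and 0.981 times the median in the same order. The 31 interferon-induced genes summed to 1.06 times the median in animal 25, 1.39 times in animal 12 and 1.499 times in animal 26. Over the 4 groups of the prefrontal cortex, the microglia sums ranged from 238 to 352 CPM, the border macrophage markers from 11.03 to 22.8 CPM, the T cell markers from 4.76 to 19.7 CPM, the B cell markers from 1.18 to 4.45 CPM and the dendritic cell markers from 21.9 to 31.4 CPM, with 0 of these markers at 0 in a whole group. In the hippocampus libraries of animals 12, 21 and 2, the 3 highest in class II there, the T cell sums were 1.67, 1.46 and 1.45 times the median and the microglia sums 1.13, 1.23 and 1.14 times. The interferon-induced sums were 1.67, 1.79 and 2.17 times the median there (the 3 highest of 29 libraries) and the choroid plexus sums 1.21, 1.56 and 1.93 times, while border macrophage sums were 0.902, 0.777 and 1.07 times. The B cell sums there were 1.13, 1.23 and 1.28 times and the dendritic cell sums 0.954, 0.917 and 1.02 times. The part of these cells in the class II levels was not tested.

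**Figure D2:**
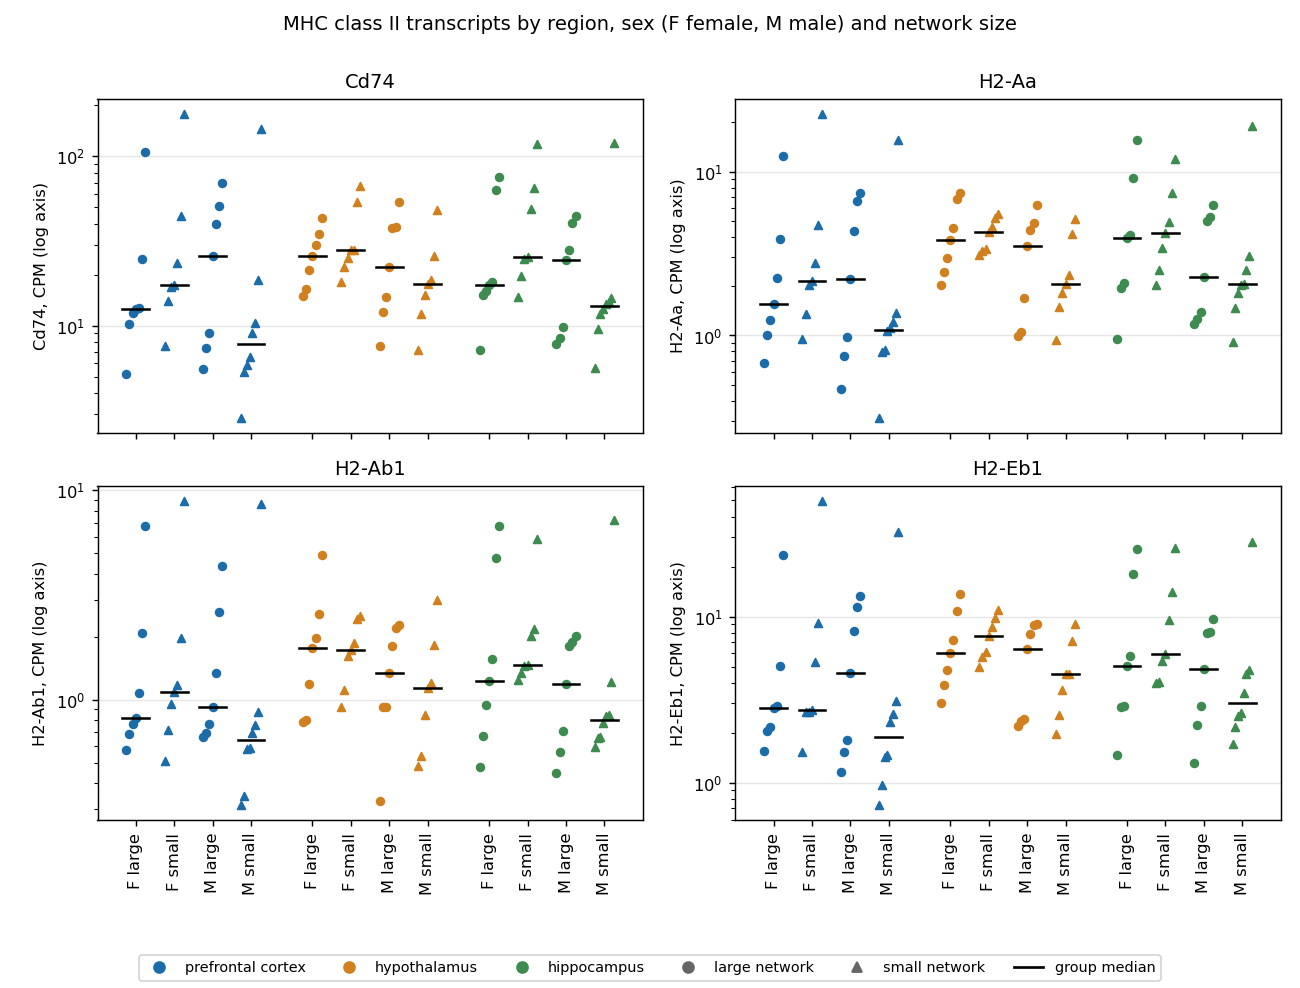
Cd74, H2-Aa, H2-Ab1 and H2-Eb1 in each library, in CPM on a log axis, by region, sex and network size, with 1 point per animal and a line at each group's median. The groups overlap in all 3 regions, and the prefrontal cortex holds single libraries far above their group's median, up to 178 CPM for Cd74.

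The 10 genes varied more between animals than most genes did. The standard deviation (SD) over animals of log2 CPM was 2.11, 1.901 and 1.99 for H2-K1 in prefrontal cortex, hypothalamus and hippocampus and 1.06, 1.20 and 1.13 for H2-D1, against a median over all genes of 0.206, 0.197 and 0.183. For the class II genes it was 1.23 to 1.51 in prefrontal cortex, 0.783 to 0.833 in hypothalamus and 1.07 to 1.21 in hippocampus. B2m (0.478, 0.391 and 0.475) and H2-T23 (0.444, 0.430 and 0.488) varied least of the 10. Low counts raise an SD, so each gene was also set beside the tenth of all genes nearest to it in level. There, in the prefrontal cortex, an SD as large as that of B2m was found in 0.597% of genes, as large as that of Cd74 in 0.108%, and as large as that of Psmb8, the highest share of the 10, in 4.66%.

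An animal that was high in one region tended to be high in the others. The share of the variance that lay between animals over the 3 regions (the intraclass correlation, 28 animals) was 0.985 for H2-K1 and 0.958 for H2-D1 with the low animals included, and 0.909 (25 animals) and 0.897 (23 animals) within the larger cluster. It was 0.837 for H2-T23, 0.827 for Psmb8, 0.824 for B2m and 0.777 for Tap1. For class II it was 0.734 for Cd74, 0.723 for H2-Aa, 0.682 for H2-Eb1 and 0.678 for H2-Ab1. The median over 17824 genes was 0.295, and between 0.101% (H2-K1) and 7.01% (H2-Ab1) of all genes reached as high a value.

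**Figure D3:**
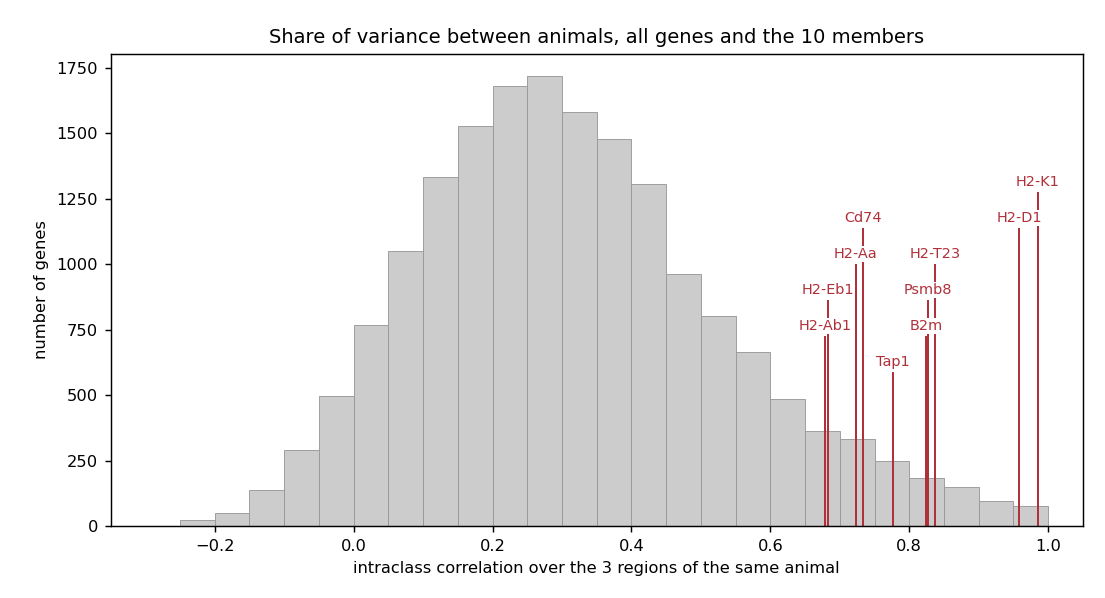
Number of genes (of 17824) by intraclass correlation over the 3 regions of an animal, with the 10 MHC genes marked by lines whose height has no meaning. All 10 lie between 0.678 and 0.985, to the right of the median of all genes at 0.295.

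Agreement between pairs of regions was tested over animals for every gene by permutation of the animals (100000 permutations, two-sided, adjusted by the Benjamini-Hochberg method over all genes). H2-K1 and H2-D1 fall into separate clusters of animals, so no r over all animals is given for them. Within the larger cluster, described without a test, r between hypothalamus and prefrontal cortex was 0.88 for H2-K1 (25 animals) and 0.87 for H2-D1 (23 animals). The other 8 genes agreed in all 3 pairs, while 30.1% of all genes were called for hypothalamus with prefrontal cortex, 30.6% for hippocampus with prefrontal cortex and 33.8% for hypothalamus with hippocampus. Between hypothalamus and prefrontal cortex (28 animals) r of the 8 genes ranged from 0.55 for H2-Ab1 (adjusted p = 0.0123) to 0.82 for Psmb8 (adjusted p = 0.000188, permutation test), beside a median r of 0.33 over all genes. Between hippocampus and prefrontal cortex (29 animals) it ranged from 0.75 for H2-Ab1 to 0.86 for Psmb8, with every adjusted p at or below 0.000491 (permutation test). Between hypothalamus and hippocampus (28 animals) it ranged from 0.79 for Tap1 to 0.93 for B2m, all with an adjusted p of 0.000168, the smallest that the permutations gave. Spearman's rho of the 24 relations lay between 0.60 and 0.93. Without the 2 animals farthest from the median of the x axis, r lay between 0.58 and 0.92, and after centring on sex and network groups between 0.54 and 0.92. Within single groups of 7 or 8 animals, 94 of the 96 values of r were above 0, with a median of 0.86, and both exceptions were in the hypothalamus with prefrontal cortex of females with small networks (H2-T23, r = -0.29, and Tap1, r = -0.30). In that group animal 25 had the highest H2-T23 level in the prefrontal cortex (28.1 CPM) and the lowest in the hypothalamus (12.7 CPM).

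No difference in agreement by network size passed the test. Of the 8 genes, 7 had a lower r in animals with small than with large networks in each pair of regions. The share of all genes with a lower r in small networks was not computed. Since the 8 genes vary together, these are not counts of independent results. The differences ranged from -0.43 to 0.00 in hypothalamus with prefrontal cortex, from -0.18 to 0.07 in hippocampus with prefrontal cortex and from -0.16 to 0.08 in hypothalamus with hippocampus. Permuting network size among animals within sex called 0 of the 8 genes and 0% of all genes in each pair. At an unadjusted p under 0.05 there were 2 of the 8, both in hypothalamus with prefrontal cortex, beside 6.6% of all genes there (6.25% and 5.99% in the other pairs). These were H2-T23 (r 0.50 in small against 0.90 in large networks, p = 0.0255, adjusted p = 0.73, permutation test) and Tap1 (0.42 against 0.85, p = 0.0326, adjusted p = 0.74). Among animals with small networks, r for H2-T23 was -0.29 in females and 0.91 in males, a difference between the sexes that was not tested. For Tap1 it was -0.30 in females and 0.69 in males. A p that misses the threshold does not show that both groups agreed alike.

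The study's main question was whether expression differs between animals with small and large networks within a sex. None of the 10 genes was called in any of the 6 comparisons by edgeR's quasi-likelihood test with Benjamini-Hochberg adjustment over all genes, and none by the Wald test of DESeq2. Of all genes, edgeR called in females 0.0113% (prefrontal cortex), 0.00552% (hypothalamus) and 0% (hippocampus), and in males 0% in each region. At an unadjusted p under 0.05 there were again 0 of the 10, while 9.59%, 7.39% and 12.2% of all genes passed in the 3 regions of females and 2.52%, 2.9% and 3.88% in those of males. In 0 of the 60 combinations of gene, sex and region did the values of both network groups not overlap, as they did not for 0.255% (prefrontal cortex), 0.064% (hypothalamus) and 0.285% (hippocampus) of all genes in females and 0.00542%, 0.0107% and 0.0108% in males. The smallest p was that of Tap1 in the prefrontal cortex of males, with a log2 fold change of small relative to large networks of -0.44 (SE 0.26, adjusted p = 1, edgeR). Its values there were 4.97, 5.78 and 13.98 CPM (lowest, median and highest) in 8 males with small and 4.96, 10.9 and 13.4 CPM in 7 males with large networks.

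The fold changes of class I genes lay on both sides of 0. In females the log2 fold changes of the 6 genes of the class I pathway ranged from -0.17 (Tap1) to 0.44 (H2-K1, SE 0.67) in prefrontal cortex, from -0.04 to 0.45 in hypothalamus and from -0.06 to 0.70 in hippocampus. In males they ranged from -0.44 to 0.17, from -0.48 to 0.14 and from -0.40 to 0.30 in the same order. H2-K1 gave the largest of these in females in every region with standard errors of 0.63 to 0.67, and its values include the animals near 0. The errors of B2m and H2-T23 were smaller, 0.14 to 0.23, and their log2 fold changes lay between -0.34 and 0.13 over the 6 comparisons.

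Class II fold changes in the prefrontal cortex had standard errors of 0.68 to 0.79 and changed sign when single animals were left out. In the prefrontal cortex of females the 4 genes ranged from 0.28 (H2-Ab1, SE 0.68) to 0.89 (H2-Eb1, SE 0.79), but without animal 25 from -0.76 (H2-Ab1) to -0.34 (Cd74) and without animal 26 from 1.13 (H2-Ab1) to 1.93 (H2-Eb1). In males the range was -0.22 to -0.03 in the prefrontal cortex and 0.12 to 0.39 in the hippocampus. Without animal 12 these became -1.83 (Cd74) to -1.44 (H2-Ab1) and -0.9998 (Cd74) to -0.62 (H2-Ab1). Leaving out any single animal called 0 of the 10 genes.

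**Figure D4:**
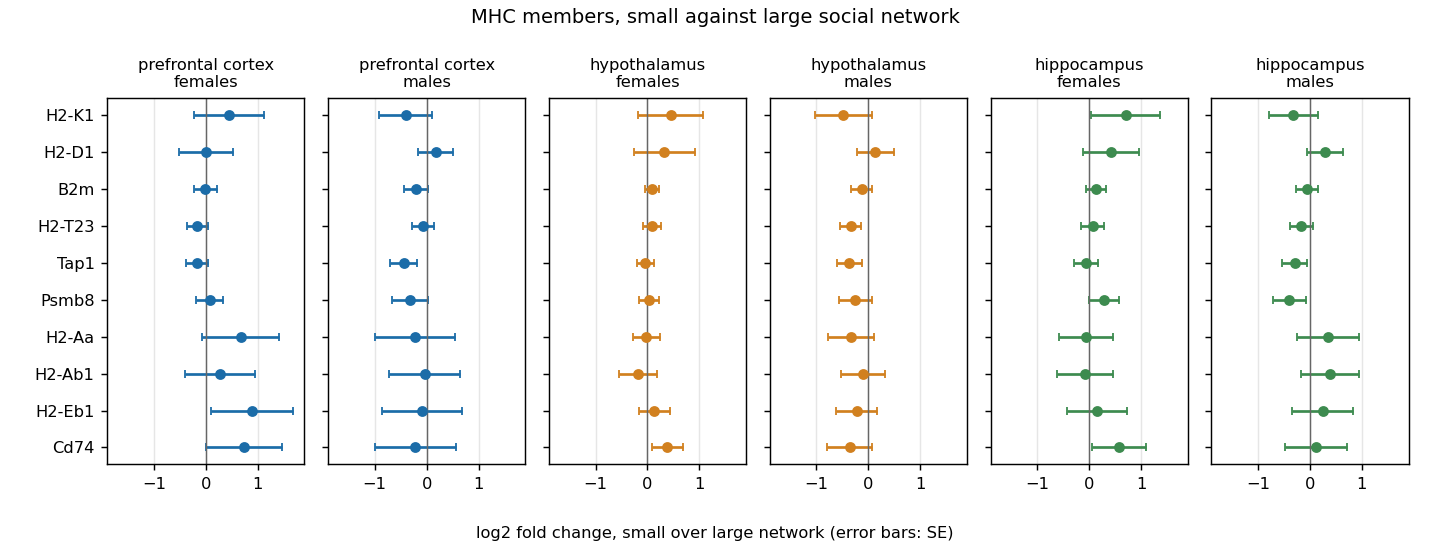
Log2 fold change of animals with small relative to large networks for each of the 10 genes, by sex and region, with bars of 1 standard error from edgeR. The values lie between -0.48 and 0.89, and 0 of 60 passed the test.

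Whether the fold change differed between the sexes was tested over the 4 groups of each region. The edgeR quasi-likelihood test called 0 of the 10 genes, as it called 0% of all genes in each region. The log2 differences (female minus male) ranged from -0.17 to 0.98 in prefrontal cortex, from -0.08 to 0.93 in hypothalamus and from -0.46 to 1.02 in hippocampus, and the smallest p was that of Psmb8 in the hippocampus (0.69, SE 0.46, adjusted p = 0.74, edgeR). At an unadjusted p under 0.05 there were 0 of the 10, beside 4.17%, 6.14% and 7.37% of all genes in the 3 regions.

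The wider pathways gave no calls by network size. Of the 20 to 22 further class I genes, 14 to 16 further class II genes and 30 or 31 interferon-induced genes tested in a comparison, 0 were called in any comparison by network size or in the tests of sex by network size (edgeR) and of spread (limma). At an unadjusted p under 0.05, a comparison by network size had at most 1 of the class I genes, 4 of the class II genes and 2 of the interferon-induced genes. The 4 class II genes were 4 of 16 tested in the hypothalamus of females, where 7.39% of all genes passed, the 1 class I gene was 1 of 22 in the hypothalamus of males (2.9% of all genes) and the 2 interferon-induced genes were 2 of 31 in the hippocampus of females (12.2%). For sex by network size in the hypothalamus 2 of 22 class I, 3 of 16 class II and 1 of 31 interferon-induced genes passed, beside 6.14% of all genes, and for spread there 6 of 22, 0 of 16 and 5 of 31, beside 11.9%. Those with the smallest p were Cd86, a costimulatory ligand of antigen-presenting cells (0.67, SE 0.20, adjusted p = 0.52 in the hypothalamus of females, edgeR), and Ctss, a protease that trims the invariant chain (0.26, SE 0.10, adjusted p = 0.63 in the same comparison). In males Cd80, another costimulatory ligand, gave 0.71 (SE 0.25, adjusted p = 1, edgeR) in the hypothalamus and Cd83 0.32 (SE 0.12, adjusted p = 1) in the hippocampus. Among class I genes H2-T24 (0.23 in the hypothalamus) and Erap1 (-0.17 in the hippocampus) had the smallest p in females and the proteasome genes Psme1 (-0.14) and Psmb10 (-0.15), both in the hypothalamus, did in males. Among interferon-induced genes Ifit2 (-0.52, hippocampus) and Ifi44 (-1.35, prefrontal cortex) had the smallest p in females and Irf7 (-0.37) and Rtp4 (-0.43), both in the hypothalamus, in males. Between hypothalamus and prefrontal cortex, in a fit that did not pair the libraries of an animal, edgeR called 75.3% of all genes. Each list had a smaller share called in that fit. Of 22 class I genes 9 were higher and 2 lower in the hypothalamus, and of 17 class II genes 7 were higher and 2 lower. Of 31 interferon-induced genes 4 were higher and 4 lower, beside 39.9% of all genes higher and 35.3% lower. The lists were not read from a fit that pairs the libraries, so these shares do not show that the lists differ less between regions.

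Spread between animals was compared by network size with limma on absolute deviations from the group means of log2 CPM. Of the 10 genes, 8 had smaller deviations in small than in large networks in prefrontal cortex, 9 in hypothalamus and 10 in hippocampus. The median difference (small minus large) was -0.14, -0.20 and -0.16, while that of all genes was 0.04, 0.03 and 0.02. After adjustment 0 of the 10 were called in each region, beside 0% of all genes in prefrontal cortex and hypothalamus and 0.0269% in hippocampus. At an unadjusted p under 0.05 there were 6 of the 10 in the hypothalamus, where 11.9% of all genes passed. They were H2-T23 (mean deviation 0.25 in small against 0.47 in large networks, adjusted p = 0.33, limma), H2-Aa (0.48 against 0.81), H2-Eb1 (0.50 against 0.80), Psmb8 (0.28 against 0.55), B2m (0.23 against 0.39) and Tap1 (0.24 against 0.43), whose adjusted p ranged from 0.384 to 0.410. H2-T23 passed alone in the prefrontal cortex (0.28 against 0.48, adjusted p = 0.28, limma), as did 15% of all genes there, and in the hippocampus 0 of the 10 did, beside 10.7% of all genes. The 10 genes vary together, so these counts are not counts of independent results.

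Between regions, H2-T23 was lower in the hypothalamus than in the prefrontal cortex (log2 fold change -0.43, SE 0.12, adjusted p = 0.000725, edgeR) and lower in the hippocampus than in the prefrontal cortex (-0.36, SE 0.12, adjusted p = 0.00551). In every one of 28 animals the prefrontal cortex had more H2-T23 than the hypothalamus, and in 26 of 29 more than the hippocampus. The other 9 genes were not called in these fits, and 0 of the 10 were called between hypothalamus and hippocampus (smallest adjusted p = 0.0637, B2m, edgeR), whereas 75.3% of all genes were called between hypothalamus and prefrontal cortex, 63.3% between hippocampus and prefrontal cortex and 68.8% between hypothalamus and hippocampus. These shares were 32.8% higher and 30.5% lower in the hippocampus than in the prefrontal cortex, and 35.2% higher and 33.7% lower in the hypothalamus than in the hippocampus. With the animal as a replicate block, 6, 5 and 4 of the 10 were called, beside 79.8%, 69.9% and 74.8% of all genes. H2-D1 was then higher in the hypothalamus than in the prefrontal cortex (0.34, SE 0.06, adjusted p = 1.81e-07, edgeR) and than in the hippocampus (0.39, SE 0.06, adjusted p = 6.41e-09), as it was in 22 of 23 animals of the larger cluster for each. B2m was lower in the hypothalamus than in the hippocampus (-0.21, SE 0.05, adjusted p = 0.000105) and the prefrontal cortex (-0.11, SE 0.05, adjusted p = 0.0323), while Psmb8 was higher in the hippocampus than in the prefrontal cortex (0.21, SE 0.07, adjusted p = 0.00516) and Tap1 likewise (0.17, SE 0.06, adjusted p = 0.0121). H2-Aa (0.58, SE 0.17) and H2-Eb1 (0.42, SE 0.18) were also called higher in the hippocampus than in the prefrontal cortex, and H2-K1 (0.12, SE 0.05) higher and Psmb8 (-0.19, SE 0.07) lower in the hypothalamus than in the hippocampus.

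Class II reversed its direction with the block. Between hypothalamus and prefrontal cortex the fit without it gave -0.01 for H2-Aa, -0.12 for H2-Eb1 and -0.19 for Cd74, all uncalled, and the fit with it gave 0.53 (SE 0.18, adjusted p = 0.00523), 0.51 (SE 0.19, adjusted p = 0.0124) and 0.40 (SE 0.17, adjusted p = 0.0252, edgeR). Within animals H2-Aa was higher in the hypothalamus in 23 of 28, H2-Eb1 in 22 and Cd74 in 22. Without animal 25, whose prefrontal cortex library had the highest class II level, the fit without the block gave 0.28, 0.22 and 0.09. With the block and without animal 25, B2m was no longer called between hypothalamus and prefrontal cortex (adjusted p = 0.0791, edgeR), and B2m (0.13) and Cd74 (0.37) were added between hippocampus and prefrontal cortex, which made 5, 7 and 4 of the 10. Of all 19966 genes, these fits called 15797 between hypothalamus and prefrontal cortex. They called 13895 between hippocampus and prefrontal cortex and 14719 between hypothalamus and hippocampus.

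The 10 genes are described here by their correlations over the 86 libraries, centred on the 12 groups. H2-Aa, H2-Ab1, H2-Eb1 and Cd74 correlated with each other at r between 0.90 and 0.98, and their most similar gene outside the 10 was H2-Ea-ps (r = 0.91 to 0.97), listed as a pseudogene and also on chromosome 17. B2m, H2-T23, Tap1 and Psmb8 correlated with each other at 0.87 to 0.90. Over all genes, the most similar to these 4 were Igtp (r = 0.95 with H2-T23), an interferon-induced GTPase, Nlrc5 (r = 0.93 with H2-T23), known as the transactivator of class I genes, Irgm1 (r = 0.93 with Tap1), Psmb9 (r = 0.91 with B2m), whose gene overlaps Tap1 on the opposite strand, and H2-Q4 (r = 0.92 with H2-T23). The class II genes and those 4 correlated at 0.71 to 0.89, the highest of these being B2m with Cd74 (0.89). Over all animals, H2-K1 gave r of -0.14 to 0.13 and H2-D1 r of -0.22 to -0.01 with the others. The animals low in H2-K1 or H2-D1 are included, and r between genes within the larger cluster was not computed. The libraries share animals and normalization, so these values are descriptions.

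**Figure D5:**
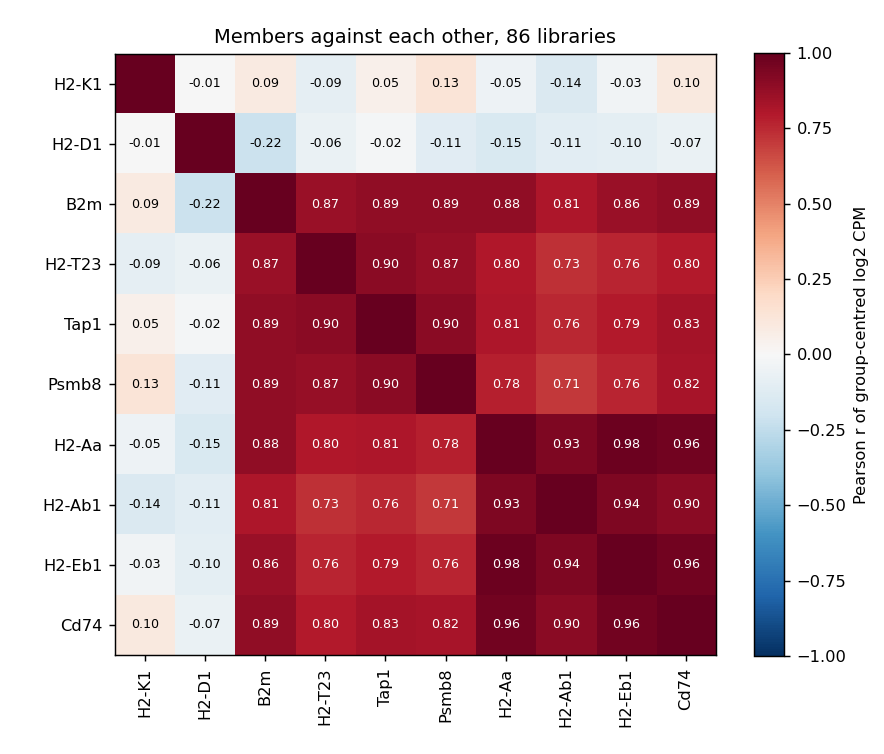
Pearson correlation of log2 CPM between each pair of the 10 genes over 86 libraries, centred on region, sex and network group. The 4 class II genes lie at 0.90 to 0.98 with each other, and B2m, H2-T23, Tap1 and Psmb8 at 0.87 to 0.90. Both sets lie at 0.71 to 0.89 with each other. H2-K1 and H2-D1, with their low animals included, lie between -0.22 and 0.13 with all others.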

How the data were processed

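RNA from punches of the prefrontal cortex, hypothalamus and hippocampus was sequenced as paired-end libraries on an Illumina NovaSeq. The authors trimmed and filtered the reads (CASAVA 1.8.2 is named in the submitters' processing notes), aligned them to GRCm38 with STAR, and deposited HTSeq read counts per gene, not normalized, with replicates not pooled. The annotation release and the strand setting are not given in the sources used here, so reads of B2m and Patl2, H2-T23 and A930015D03Rik, Tap1 and Psmb9, Psmb8 and Gm20496, or H2-Eb1 and Gm20513, which overlap on opposite strands, cannot be told apart, and Cd74 contains Mir5107. RNA integrity was below 7 in 1 hypothalamus library (animal 19).

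From these counts, genes were named by GENCODE vM21 (34490 of 35275 matched). For each sex and region, small and large networks were compared by the quasi-likelihood test of edgeR 4.0.16 in R 4.3.3 on genes kept by filterByExpr (minimum count 10, minimum total 15, proportion 0.7) with TMM scaling and no covariates. Regions were compared in 1 fit of all 86 libraries and 12 groups. Equal numbers mark libraries of the same animal, so the animal was also fitted as a replicate block: all 85 same-animal pairs had deviations correlated above 0.1 (0.116 to 0.651, median 0.329). When each library was matched to the libraries of another region, its own animal was the best match in 128 of 170 cases. Log2 CPM used a prior count of 2. Spread was tested with limma 3.58.1, agreement with 100000 permutations in Python 3.11.15. Every adjusted p is by the Benjamini-Hochberg method over all genes, with a threshold of 0.05. A standard error comes from the same fit. The edgeR test by network size, the limma test of spread and the permutation tests of agreement were checked on simulated data. The fits of sex by network size and of regions, with or without the block, were not. DESeq2 1.42.0, other filters, scalings and prior counts, and leaving out each animal were alternatives. The promoter windows are RefSeq's; H2-Ab1 and Cd74 had none in the table used.

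The 10 genes, the pathway and marker lists and the tests were chosen with earlier results of these data known. All 10 genes are named in every comparison, and of the class I, class II and interferon-induced lists, where nothing was called, the 2 genes with the smallest p in each sex. H2-Ea, Gbp5 and Gbp6 of these lists were not found in the table under these symbols. An entry named H2-Ea-ps was in the table but was not counted in the class II list. H2-Ke6 of the class I list encodes a metabolic enzyme named for its place in the MHC. Markers were 8 genes of microglia, 6 of border macrophages, 7 of T cells, 4 of B cells, 6 of dendritic cells, 4 of neutrophils, 5 of choroid plexus, 5 of endothelium and 5 of red blood cells, given by sums only.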

Additional observations from a re-analysis of the deposited data

Results flagged for a closer look

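Each gene was examined in each of its 12 groups of 7 or 8 animals for a highest or lowest animal whose gap to the nearest other, divided by the range of the group on the log2 CPM scale, passed the critical value of Dixon's test (0.568 for 7 and 0.526 for 8 animals). Chance gives about 1 in 20 groups if log2 values are normally distributed. Of the 120 groups 20 passed, which are not independent of each other since the genes vary together and each animal has 3 libraries. The share of groups that pass over all genes was not computed, so this count shows no excess over other genes. They gather in few animals.

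Of the 20, 9 were the animals near 0 for H2-K1. Animal 2 had ratios of 0.818, 0.810 and 0.858 (prefrontal cortex, hypothalamus and hippocampus) among females with large networks. Animal 4 had 0.820, 0.766 and 0.763 among females with small networks, and animal 30 had 0.830, 0.819 and 0.824 among males with large networks. For H2-D1, animal 20 was the lowest male with a large network in the hypothalamus, with a ratio of 0.600 and 11.3 CPM against 42.6 CPM in the next animal.

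Animal 12, a male with a small network, was the highest of its group in 8 cases. In the prefrontal cortex the ratios were 0.638 for H2-Aa, 0.705 for H2-Ab1 and 0.624 for H2-Eb1. In the hippocampus they were 0.600 for Tap1, 0.605 for H2-Aa, 0.719 for H2-Ab1, 0.636 for H2-Eb1 and 0.691 for Cd74, the last at 121 CPM against 14.5 CPM in the next animal. Among females with small networks, animal 21 was highest for H2-Ab1 in the hippocampus (0.639, 5.87 against 2.19 CPM). Animal 25 was lowest for Tap1 in the hypothalamus (0.769, 6.79 against 10.3 CPM).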

How the results depend on the processing

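Of 1875 alternative values, 1722 kept their direction and side of the threshold, 127 changed sign, 20 became called and 6 were counts that moved by more than 1.5 times. By network size, sex by network size and spread, 0 of the 10 genes were called under any alternative tried. H2-K1 in the prefrontal cortex of females had no value with at least 10 counts in every library, since the gene was then left out. Leaving out 1 animal at a time changed the sign of 32 of the 60 fold changes by network size (94 of 860 values) and brought 0 of the 10 past the threshold. Their lowest and highest log2 fold changes follow, with the number of the animal left out in parentheses. For prefrontal cortex of females they were H2-D1 -0.19 (21) to 0.19 (5), B2m -0.19 (25) to 0.15 (26), Tap1 -0.27 (1) to 0.047 (26), Psmb8 -0.068 (1) to 0.30 (26), H2-Aa -0.51 (25) to 1.57 (26), H2-Ab1 -0.76 (25) to 1.13 (26), H2-Eb1 -0.51 (25) to 1.93 (26) and Cd74 -0.34 (25) to 1.74 (26). For prefrontal cortex of males they were H2-D1 -0.017 (12) to 0.41 (30), H2-T23 -0.22 (12) to 0.00703 (30), H2-Aa -1.76 (12) to 0.12 (30), H2-Ab1 -1.44 (12) to 0.45 (30), H2-Eb1 -1.73 (12) to 0.24 (30) and Cd74 -1.83 (12) to 0.14 (11). For hypothalamus of females they were H2-T23 -0.015 (1) to 0.17 (2), Tap1 -0.12 (1) to 0.0400 (25), Psmb8 -0.0898 (1) to 0.17 (2), H2-Aa -0.15 (19) to 0.16 (2), H2-Ab1 -0.32 (1) to 0.22 (2) and H2-Eb1 -0.000125 (19) to 0.38 (2). For hypothalamus of males they were H2-D1 -0.046 (20) to 0.36 (30) and H2-Ab1 -0.49 (12) to 0.055 (30). For hippocampus of females they were H2-T23 -0.071 (21) to 0.24 (2), Tap1 -0.25 (21) to 0.15 (2), H2-Aa -0.40 (21) to 0.50 (2), H2-Ab1 -0.54 (21) to 0.47 (2) and H2-Eb1 -0.30 (21) to 0.71 (2). For hippocampus of males they were B2m -0.23 (12) to 0.077 (20), H2-Aa -0.70 (12) to 0.59 (20), H2-Ab1 -0.62 (12) to 0.56 (11), H2-Eb1 -0.76 (12) to 0.46 (11) and Cd74 -0.9998 (12) to 0.36 (11).

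H2-D1 in the prefrontal cortex of females became 0.00104 (DESeq2), 0.00553 (DESeq2 size factors), 0.000549 (at least 10 counts in every library) and 0.00414 (4 groups in 1 fit), and the spread difference of Cd74 there 0.00270 (deviations from medians). With size factors and DESeq2, Psmb8 between hypothalamus and prefrontal cortex became -0.00290 and -0.00490, and H2-Ab1 between hippocampus and prefrontal cortex -0.00116 and -0.00262. The animal as a replicate block called 6 of the 10 between hypothalamus and prefrontal cortex, 5 between hippocampus and prefrontal cortex and 4 between hypothalamus and hippocampus, against 1, 1 and 0 without it. With animal 25 also left out, a setting chosen after seeing the data, the block called 5, 7 and 4. In that setting 15797, 13895 and 14719 of all 19966 genes were called in the same comparisons. In the first of these, H2-Aa, H2-Ab1, H2-Eb1 and Cd74 became 0.53, 0.18, 0.51 and 0.40 with the block, 0.28, 0.0817, 0.22 and 0.0896 without animal 25, and 0.68, 0.31, 0.66 and 0.53 with both. In the second, Cd74 became 0.25, 0.25 and 0.37 in the same order. In the third, H2-Ab1, H2-Eb1 and Cd74 became 0.0264, 0.0890 and 0.15 with the block and 0.0266, 0.0906 and 0.16 with both. With Spearman's rho the difference in agreement became -0.0947 for Psmb8 (hypothalamus, prefrontal cortex), -0.19 for Tap1 (hippocampus, prefrontal cortex) and -0.0295 for Cd74 (hypothalamus, hippocampus). The block changed no call beyond those given. The cause was not tested.

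Over all genes, DESeq2 called 74, 43 and 95 in prefrontal cortex, hypothalamus and hippocampus of females and 2, 1 and 0 in males, against 2, 1 and 0 and against 0, 0 and 0 by edgeR, with 0 of the 10 among them. In females edgeR called 6 (prefrontal cortex), 3 (hypothalamus) and 1 (hippocampus) with at least 1 count as the only filter. It called 5 in their prefrontal cortex with at least 10 counts in every library or robust dispersions, and with 4 groups in 1 fit 4 there, 1 in that of males and 0 in the hypothalamus of females. For sex by network size DESeq2 called 30, 0 and 1 against 0 by edgeR, and spread went from 5 to 0 in the hippocampus with deviations from medians and from 0 to 1 in the hypothalamus with a prior count of 0.5. At this depth all 10 genes passed the edgeR filter in every comparison.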

Other observations

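Genes that act beside the 10 in antigen presentation were also called between regions. Those named here were picked after their values were seen, as the 3 genes of each list with the smallest p between hypothalamus and prefrontal cortex (edgeR quasi-likelihood test over 86 libraries, Benjamini-Hochberg adjustment, without the animal as a block), a comparison in which 75.3% of all genes were called and 11 of 22 class I, 9 of 17 class II and 8 of 31 interferon-induced genes. In the class I list, Psme1 (log2 fold change 0.60, SE 0.04) and Psme2 (0.38, SE 0.04), which form the proteasome activator, and the chaperone Canx (0.41, SE 0.03) were higher in the hypothalamus. In the class II list, Cd83, a surface protein of activated antigen-presenting cells (2.11, SE 0.06), Rfx5, a factor of class II promoters (0.59, SE 0.03), and the protease Lgmn (0.30, SE 0.03) were higher there. In the interferon-induced list, Stat2 (-0.32, SE 0.04), Ifih1 (-0.44, SE 0.08) and Ifit2 (-0.46, SE 0.12) were lower there. Between hippocampus and prefrontal cortex 4 class I genes were higher and 4 lower of 22 tested, 8 class II genes higher and 1 lower of 17, and 2 interferon-induced genes higher and 3 lower of 31, where 63.3% of all genes were called. Between hypothalamus and hippocampus these counts were 9 and 1, 8 and 2, and 3 and 3, where 68.8% of all genes were called.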
